A study of Mus musculus with 8 samples.

Results

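The genes described here bind retinoids, make retinoic acid or receive its signal: Crabp1, Crabp2, Rbp4, Aldh1a1, Rara, Rarb, Rxra, Rxrb and Rxrg. They are 9 of the 34836 gene names on the array, found by gene name among the non-control spots, and 14 of its 55681 probes. They were chosen by their family with their levels in these same samples already known, so their differences between nuclei are given below as a description with intervals and without p-values. RNA came from neurons of the arcuate nucleus (Arc, 2 samples), ventromedial nucleus (VMH, 3 samples) and dorsomedial nucleus (DMH, 3 samples) of the mouse hypothalamus, and each sample was hybridised to its own 1-colour array. All samples came from 2-month-old female mice of the strain Nkx2-1-CreERT2 x Rosa-ZsGreen given tamoxifen, which makes cells with an active Nkx2-1 gene fluoresce green from then on through the ZsGreen reporter. Fluorescent neurons were dissected by laser and combined into pools, so the values cover the Nkx2-1 lineage of each nucleus only, and RNA of cells touching the cut neurons may be included. No sample without the driver or without tamoxifen was part of the comparison. The labels do not say which samples share an animal, so the p-values below reflect only how far these samples spread, whether for technical or biological reasons.

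Retinol travels in blood on retinol-binding protein 4 (Rbp4) and transthyretin, is oxidised inside cells to retinal and then by aldehyde dehydrogenases such as Aldh1a1 to retinoic acid, and is carried in the cytoplasm by the cellular retinoic acid-binding proteins Crabp1 and Crabp2. Retinoic acid binds the retinoic acid receptors (Rara, Rarb and Rarg), which sit on DNA as pairs with a retinoid X receptor (Rxra, Rxrb or Rxrg). Retinoid X receptors also pair with thyroid hormone, vitamin D, PPAR and liver X receptors. In the rat, tanycytes lining the ventricle beside the arcuate nucleus are known to make retinoic acid.

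The letters of the regions behind the genes with the largest nucleus differences, and of the best known retinoic acid response element, are shown first. The Crabp1 probe, whose signal is used below, lies in coding sequence at chr9:54616192-54616251 (mm9, plus strand), and its letters show which stretch of the transcript was measured.
Crabp1 probe: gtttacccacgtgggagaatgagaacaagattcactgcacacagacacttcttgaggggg
RefSeq (GRCm38.p6) gave 16 windows of 300 bases, 250 before and 50 after a gene start, for 8 of the 9 genes. Each was searched on both strands for direct repeats of the half-site AGGTCA (G also allowed as the first base, T as the third) with spacers of 1, 2 or 5 bases (DR1, DR2 and DR5), for TATAAA and for GGGCGG. None of the motifs overlapped another in the windows shown. Rarb alone held a DR5, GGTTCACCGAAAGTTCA, from -53 to -37 relative to its start, and DR5 occurred in 0.0974% of all 32851 windows. The part of the Rarb window before the start, chr14:16575477-16575726 (GRCm38.p6, minus strand), reads as follows, with the DR5 in capitals.
Rarb upstream: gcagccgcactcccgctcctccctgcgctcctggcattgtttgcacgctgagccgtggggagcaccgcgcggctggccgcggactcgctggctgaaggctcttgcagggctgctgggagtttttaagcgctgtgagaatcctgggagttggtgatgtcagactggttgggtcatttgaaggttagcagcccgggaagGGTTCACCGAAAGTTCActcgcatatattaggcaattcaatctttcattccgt
DR1 was present in 0.222% of all windows and DR2 in 0.268%, and in none of the 16 windows of these genes. The windows of Crabp1 and Rbp4 are shown because both genes stood far highest in Arc, so that their upstream letters can be set side by side. The Crabp1 stretch at chr9:54764498-54764747 (GRCm38.p6, plus strand) holds 5 matches to GGGCGG on either strand, and the Rbp4 stretch at chr19:38124812-38125061 (GRCm38.p6, minus strand) holds 2, with TATAAA from -28 to -23. Capitals mark these motifs.
Crabp1 upstream: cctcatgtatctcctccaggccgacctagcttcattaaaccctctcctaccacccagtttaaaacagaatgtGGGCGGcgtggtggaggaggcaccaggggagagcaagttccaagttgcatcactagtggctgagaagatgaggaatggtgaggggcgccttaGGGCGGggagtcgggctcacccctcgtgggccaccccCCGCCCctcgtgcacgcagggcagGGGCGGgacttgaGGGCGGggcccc
Rbp4 upstream: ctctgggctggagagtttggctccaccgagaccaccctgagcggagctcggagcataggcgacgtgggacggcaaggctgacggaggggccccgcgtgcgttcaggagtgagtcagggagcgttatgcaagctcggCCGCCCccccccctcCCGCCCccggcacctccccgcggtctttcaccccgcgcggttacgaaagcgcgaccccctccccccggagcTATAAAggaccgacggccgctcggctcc
GGGCGG was found in 8 of the 16 windows of these genes and in 35.7% of all windows, and TATAAA in 1 of the 16 and in 13.6% of all windows. The 8 include a pair of overlapping Rara windows with the same 4 matches. The other Rbp4 window, not shown, held none of the motifs. These matches describe letters, not binding.

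A level below is the log2 spot signal relative to its own array, with the 75th percentile over non-control spots set to 0, so that a step of 1 is a 2-fold change. Levels of different genes cannot be compared, because each rests on its own probe. Between 72.4% and 78.7% of probes were well above background per array, and the 75th percentile lay between 1806 and 3042 intensity units. Profiles correlated at 0.940 to 0.964 within a nucleus and at 0.905 to 0.951 between nuclei, across probes. Most genes listed as markers of a nucleus were higher in it, with adjusted p under 0.05 in limma. These were 7 of 9 for Arc, 7 of 8 for VMH and 8 of 8 for DMH. Th and Prlr did not pass in Arc, and Prlr was called higher in VMH, with means of 0.53 in Arc and 1.155 in VMH. Nptx2 did not pass in VMH, with means of 4.81 in VMH and 4.80 in DMH. Pomc, the melanocortin precursor, was 5.61 higher in Arc than in the mean of the other nuclei on the log2 scale (limma, adjusted p = 0.00251), and Agrp, the melanocortin antagonist, was 3.90 higher there (adjusted p = 0.00205). Fezf1 was 7.93 higher in VMH (adjusted p = 6.05e-06) and Nr5a1 1.09 higher (adjusted p = 0.0269). Ppp1r17 was 4.50 higher in DMH (adjusted p = 0.00239) and Cck 6.87 higher (adjusted p = 0.00194). Fezf1 was well above background on 0 of 2 Arc and 0 of 3 DMH arrays, and Cck on 0 of 2 Arc arrays. The sizes of these 2 differences are therefore not exact.

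Among the binding proteins, Crabp1 and Rbp4 stood far above the other nuclei in Arc, and Crabp2 and Aldh1a1 varied less. Crabp1, which holds retinoic acid in the cytoplasm and carries it toward breakdown, was at 1.69 and 2.75 in the Arc samples, against -1.64, -1.45 and -1.62 in VMH and -1.595, -1.87 and -1.23 in DMH. It was well above background on all 8 arrays, and both Arc samples lay above all VMH and DMH samples. Crabp1 averaged 2.22 ± 0.76 in Arc, -1.57 ± 0.10 in VMH and -1.57 ± 0.32 in DMH (SD, n = 2, 3 and 3). Arc exceeded the mean of the other nuclei by 3.79 ± 0.31 on the log2 scale (SE, 95% interval 3.08 to 4.50), which is 13.8-fold. VMH and DMH did not differ beyond their spread, with DMH minus VMH at 0.0076 (95% interval -0.70 to 0.72).

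Rbp4, the plasma carrier of retinol, was at -1.27 and -1.01 in Arc, against -4.99, -6.25 and -5.53 in VMH and -3.61, -4.02 and -4.47 in DMH. Its probe lies at chr19:38191120-38191179 (mm9, minus strand). It was well above background on both Arc arrays and on 2 of the 3 DMH arrays, and on none of the VMH arrays, so that the VMH level is only a bound. Each array where the probe was dim was entered with the lowest signal that array measured above background or the probe's own signal, whichever was higher. On that footing the Arc level was 7.70-fold above the mean of VMH and DMH, 8.34-fold above VMH and 7.11-fold above DMH. The measured log2 difference of Arc was 3.67, and with normexp background correction it was 1.73. The latter is below the 2.945 to which 7.70-fold corresponds, so these folds are not strict lower bounds. In bulk samples such as these, fewer cells of a type and less RNA per cell cannot be told apart.

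**Figure D1:**
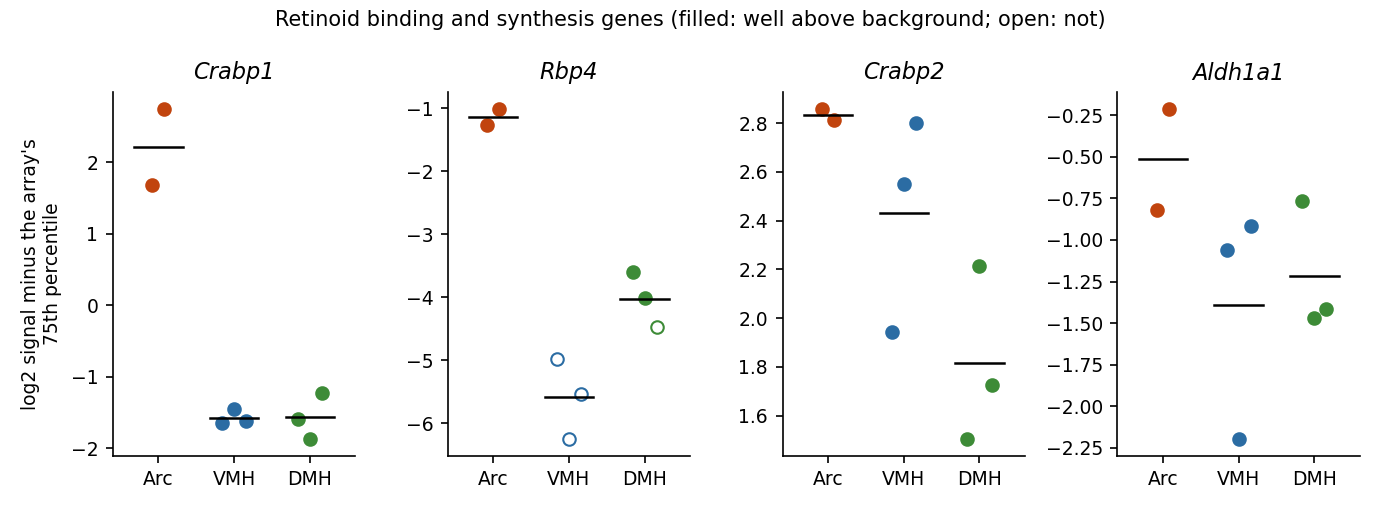
Level of Crabp1, Rbp4, Crabp2 and Aldh1a1 in each sample, as log2 signal minus the array's 75th percentile (vertical axis, a range of its own in each panel), with Arc, VMH and DMH from left to right. Each point is 1 sample, black lines are nucleus means, and open points were not well above background. Crabp1 lies at 1.69 and 2.75 in Arc and below -1.2 elsewhere.

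Crabp2, which delivers retinoic acid to its receptors in the nucleus, was at 2.86 and 2.81 in Arc, against 1.94, 2.55 and 2.80 in VMH and 1.504, 2.22 and 1.73 in DMH. The Arc samples lay above all others by a small margin, since the highest VMH sample was at 2.80. Arc minus the mean of the others was 0.71 ± 0.29 (SE, 95% interval 0.051 to 1.37), and the lowest nucleus mean was that of DMH, with DMH minus VMH at -0.62 (95% interval -1.28 to 0.046). Aldh1a1, an enzyme that makes retinoic acid from retinal, was at -0.82 and -0.21 in Arc, against -1.06, -2.20 and -0.91 in VMH and -0.77, -1.47 and -1.42 in DMH. These groups overlapped, since 1 DMH sample lay above an Arc sample. The Arc difference of Aldh1a1 was 0.79 ± 0.39 (SE, 95% interval -0.11 to 1.69).

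Values of cells that could accompany the Arc neurons are given beside these levels. Of 9 tanycyte and ependyma genes, 8 were measured and 1 (Adm) was above background on no array. Their mean level was -1.83 to -1.49 in Arc, against -2.22 to -1.91 in VMH and -3.07 to -2.49 in DMH. Of the 8 measured, 1 gene was called higher in VMH (Crym) and 1 lower in DMH (Col23a1), and 0 were called in Arc by limma, where 3 were higher and 2 lower at an unadjusted p under 0.05. Vim, an intermediate filament gene of tanycytes and other glia, was at -1.09 and -0.67 in Arc, against -3.76, -2.97 and -3.07 in VMH and -6.88, -2.46 and -6.30 in DMH. It was well above background on only 1 of 3 DMH arrays. Other genes of the list went the other way. Crym averaged -3.01 in Arc, against -1.165 in VMH and -2.99 in DMH, and Ccdc153 averaged -0.19, against 0.48 and 0.72. The 8 microglia genes had a mean level of 0.99 to 1.03 in Arc, against 0.24 to 0.54 in VMH and 0.51 to 0.64 in DMH, and limma called 0 of them in Arc, where 2 were higher and 0 lower at an unadjusted p under 0.05. The 9 oligodendrocyte genes had a mean level of -1.06 to -0.75 in Arc, against -0.74 to 0.20 in VMH and -0.58 to -0.20 in DMH. The 5 pan-neuronal genes had a mean level of 3.23 to 3.48 in Arc, against 3.92 to 4.02 in VMH and 3.63 to 3.81 in DMH. Of these 5, limma called 1 lower in Arc (Syt1), where 0 were higher and 2 lower at an unadjusted p under 0.05. The part of these cells in the Crabp1 and Rbp4 levels was not tested. Within the rows of the slide, which held 1 Arc sample each, Arc minus the others was 4.43 and 3.07 for Crabp1. For Rbp4 both Arc samples lay above every other sample of their row, where the VMH arrays were dim and no exact size is given.

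Of the receptors, Rxrg was far lower in DMH than in Arc and VMH. On their brightest probes, the others differed by less than 1 on the log2 scale between DMH and the mean of the other nuclei. Rxrg, the retinoid X receptor with the most restricted tissue pattern, was at 0.96, 1.06 and 1.097 in DMH, against 3.45 and 3.10 in Arc and 3.49, 3.33 and 3.83 in VMH. All DMH samples lay below all other samples, by a gap far larger than the spread within a nucleus. DMH minus the mean of the others was -2.38 ± 0.19 (SE, 95% interval -2.81 to -1.94), a 5.19-fold lower signal. VMH exceeded Arc by 0.27 (95% interval -0.26 to 0.81), a difference within the spread. Within the slide rows, DMH minus the others was -2.46 and -2.34.

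**Figure D2:**
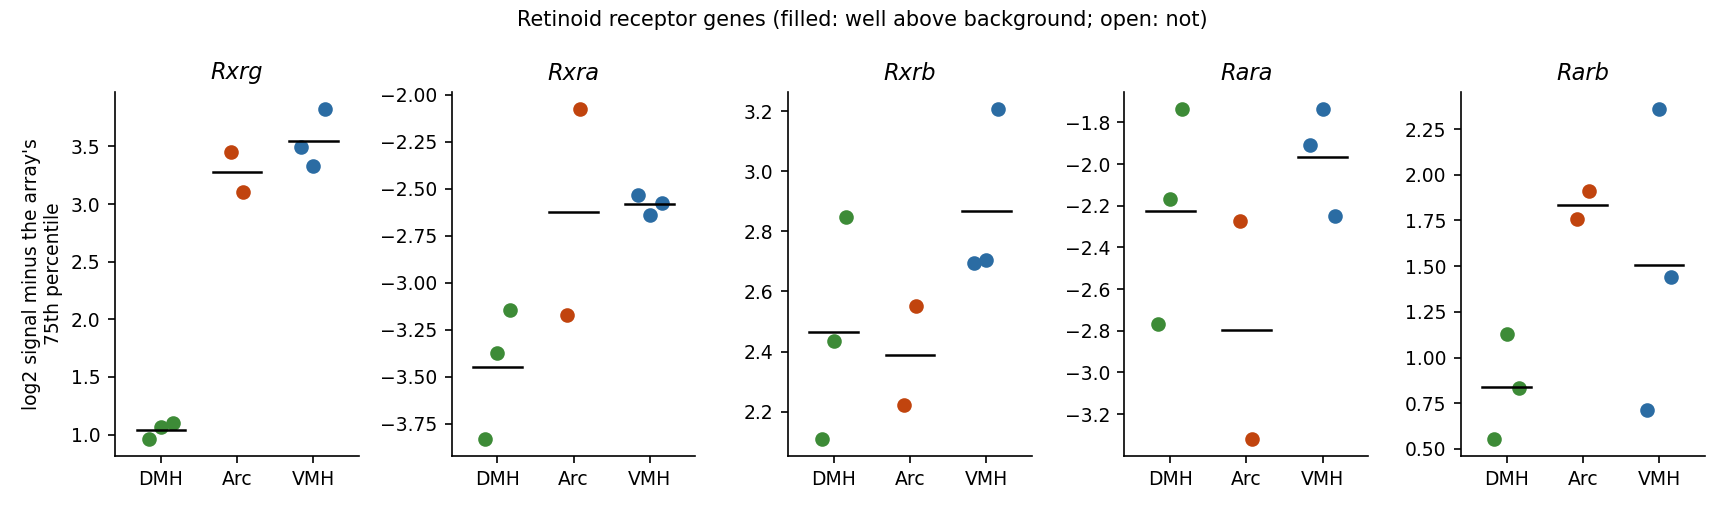
Level of the 5 receptor genes in each sample, as log2 signal minus the array's 75th percentile (vertical axis, a range of its own in each panel), with DMH, Arc and VMH from left to right. Each point is 1 sample and black lines are nucleus means, and all points were well above background. Rxrg lies between 0.96 and 1.097 in DMH and above 3.1 in Arc and VMH.

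Rxra, the retinoid X receptor found in most tissues, was at -3.83, -3.37 and -3.15 in DMH, against -3.17 and -2.07 in Arc and -2.53, -2.64 and -2.58 in VMH. The DMH and Arc samples overlapped, and all DMH samples lay below the VMH samples. DMH minus the mean of the others was -0.85 ± 0.28 (SE, 95% interval -1.504 to -0.19), and -0.41 with normexp background correction. Rxrb, another retinoid X receptor of wide expression, was at 2.11, 2.43 and 2.85 in DMH, against 2.22 and 2.55 in Arc and 2.69, 2.71 and 3.21 in VMH, and the nuclei overlapped. Its DMH difference was -0.16 ± 0.24 (SE, 95% interval -0.71 to 0.38). The astrocyte genes, 8 of 9 measured, had a mean level of 0.25 to 0.34 in DMH, against -0.72 to -0.13 in Arc and -0.63 to 0.11 in VMH, and 1 (Gjb6) was called higher in DMH. The tanycyte and ependyma genes were lowest in DMH, as given above. The part of either in the receptor levels was not tested.

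The retinoic acid receptors varied less than Rxrg. Rara, expressed in most tissues, was at -2.77, -2.17 and -1.73 in DMH, against -2.28 and -3.32 in Arc and -1.91, -1.74 and -2.25 in VMH. These samples overlapped, with a DMH difference of 0.16 ± 0.32 (SE, 95% interval -0.59 to 0.91). Rarb was at 0.55, 1.13 and 0.83 in DMH, against 1.76 and 1.91 in Arc and 0.71, 2.36 and 1.44 in VMH. Its brightest probe, used for these levels, is assigned to another transcript record than its further probes. Whether this probe reads transcripts from the start beside the DR5 shown above was not tested. DMH samples lay below the Arc samples and overlapped the VMH samples, with DMH minus the mean of the others at -0.83 ± 0.36 (SE, 95% interval -1.66 to -0.0012). Arc minus the mean of the others was -0.70 for Rara and 0.40 for Rxra, and leaving out 1 Arc sample moved these to between -1.23 and -0.18 for Rara and between -0.15 and 0.94 for Rxra.

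Several probes stood for 4 of the receptors, and they did not all show the same difference. The second Rxrg probe, 68 bases from the first, was at 0.45, 0.96 and 0.86 in DMH, against 1.99 and 2.17 in Arc and 1.79, 1.70 and 1.68 in VMH. It gave the same order between DMH and the others, with DMH minus the mean of the others at -1.15 on the log2 scale, which is less than that of the brightest probe. The other Rxra probe, 3405 bases away, was at -1.85, -2.52 and -5.47 in DMH, against -6.08 and -4.08 in Arc and -3.17, -2.61 and -4.84 in VMH. It was well above background on 2 of 3 DMH arrays, 0 of 2 Arc arrays and 2 of 3 VMH arrays. Its DMH minus the mean of the others was 1.03, the opposite sign to the -0.85 of the brightest probe, with dim arrays included. Its DMH samples overlapped the others, so it did not show the lower DMH level of the brightest probe. The brightest Rarb probe, chr14:17651424-17651483 (mm9, minus strand), lies 386716 bases upstream of the nearest other Rarb probe, and probes that far apart need not read the same transcripts. The 2 further Rarb probes gave DMH differences of -0.58 and -0.47, and within DMH they ran from -4.56 to -2.24 and from -3.87 to -0.35. The second Rara probe was above background on 1 array only, a DMH array, and gave no usable comparison.

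**Figure D3:**
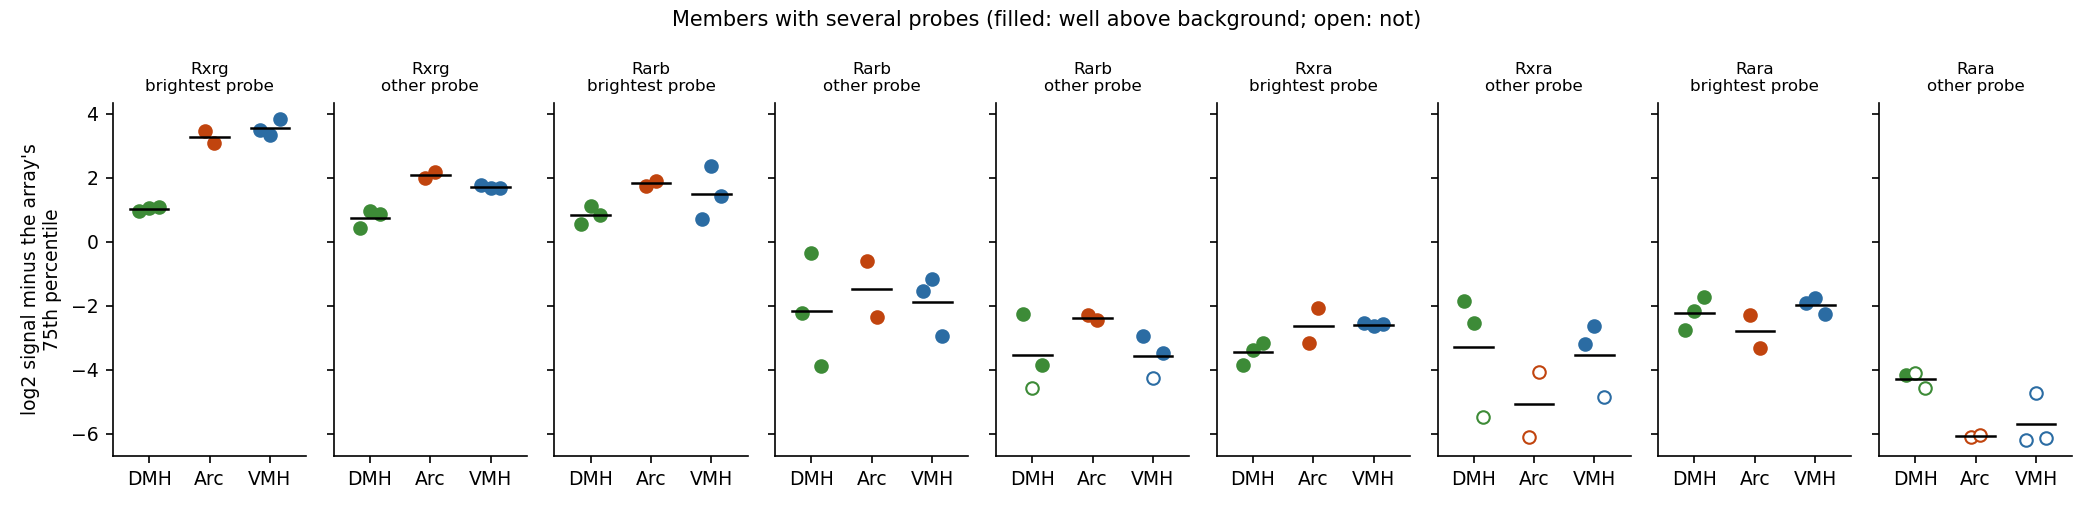
Level of every probe of the 4 receptors with several probes, as log2 signal minus the array's 75th percentile (vertical axis, shared), with DMH, Arc and VMH from left to right in each panel. Each point is 1 sample, black lines are nucleus means, and open points were not well above background. Both Rxrg probes have all DMH samples below all other samples, and the other Rxra probe ranges widely in DMH.

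Across the 9 genes, 2 were called higher in Arc (Crabp1 and Rbp4) and 0 lower, with adjusted p under 0.05 in limma. All genes tested gave 0.193% called higher and 0.419% called lower in that comparison. In VMH, 1 was called higher (Rxrg) and 2 lower (Crabp1 and Rbp4), where all genes gave 0.871% higher and 0.47% lower. In DMH, 0 were called higher and 2 lower (Crabp1 and Rxrg), where all genes gave 0.368% higher and 0.474% lower. These counts rest on the values by which the genes were chosen, so they are a description and no test of these genes. Rbp4 passed the filter on dim probes only through Arc, the nucleus where it was high. A nucleus is called lower here when another is high. The lower calls of Crabp1 and Rbp4 in VMH and of Crabp1 in DMH therefore restate the Arc level. In the same way, the higher call of Rxrg in VMH restates its low DMH level. VMH minus Arc was 0.27 (95% interval -0.26 to 0.81) for Rxrg, and -0.36 on its second probe. The VMH call of Rxrg ended when any 1 VMH sample was left out, with differences of 1.25 to 1.501. The lower calls of Crabp1 ended without VMH sample 1, 2 or 3 or DMH sample 1 or 3 in both nuclei, and without DMH sample 2 in DMH, while its difference stayed between -2.06 and -1.73. The median difference of the 9 genes was 0.71 in Arc, 0.17 in VMH and -0.82 in DMH, against 0.037, 0.006 and -0.044 over all genes.

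**Figure D4:**
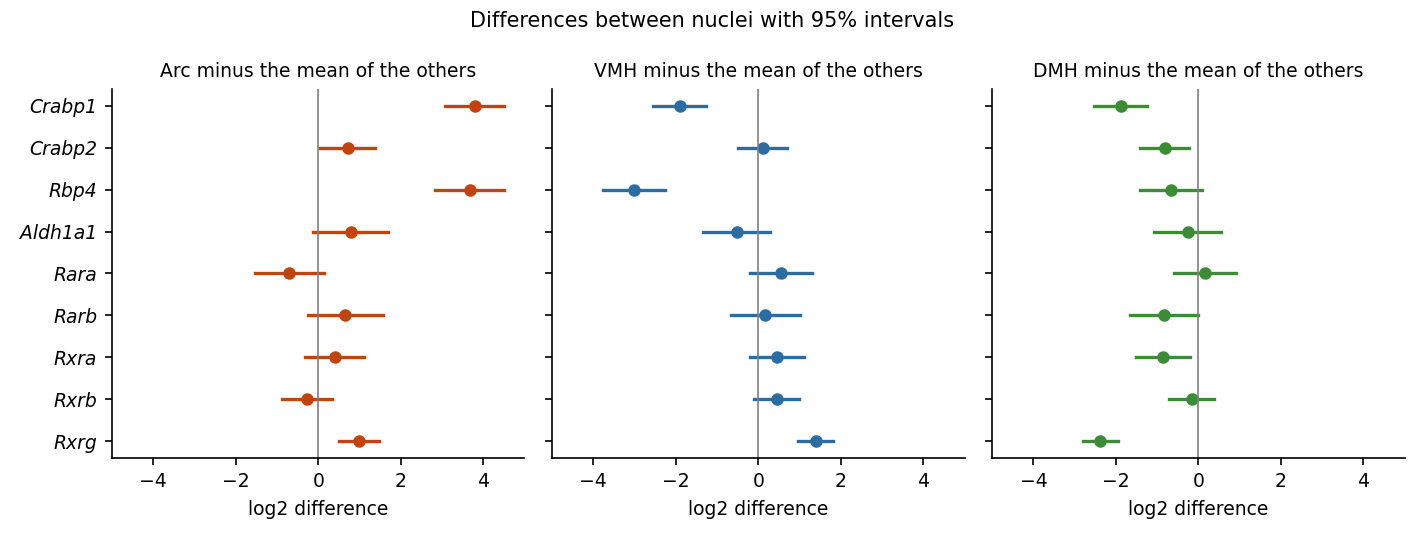
Difference of each of the 9 genes in each nucleus minus the mean of the other nuclei (horizontal axis, log2), with points as fitted differences and lines as 95% intervals. Crabp1 stands at 3.79 in Arc and Rxrg at -2.38 in DMH. The points of Rbp4 include arrays where its probe was dim, so that its Arc size is not exact. It was 2.95 with dim arrays entered at their lowest signal above background, and 1.73 with normexp background correction.

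A list of 77 other genes of retinoid handling, all on the array, was tested in the same fit, and 56 of them passed the filter on dim probes. None of the 56 passed the adjusted threshold in any of the 3 comparisons (limma, Benjamini-Hochberg over all genes). At an unadjusted p under 0.05, 6 were higher and 7 lower in Arc, 3 and 1 in VMH, and 4 and 7 in DMH, while 15.7%, 13.1% and 16.3% of all genes passed that cut in Arc, VMH and DMH. By role, 8 of 12 genes of retinol transport and uptake were measured, 13 of 20 of retinol and retinal redox, 2 of 4 of retinoic acid synthesis, 3 of 4 of its breakdown and carriage, 12 of 14 partner receptors, 12 of 12 coregulators and 6 of 11 responsive genes. The median difference was 0.0025 in Arc, -0.065 in VMH and 0.034 in DMH. Of the genes that make retinoic acid, Aldh1a2, the main enzyme in the embryo, was above background on no array and Rdh10, which starts the oxidation of retinol, on 1. Aldh1a3, a related enzyme, was above background on 3 of 3 DMH arrays, 0 of 2 Arc arrays and 2 of 3 VMH arrays, and its DMH difference did not pass (adjusted p = 0.322). Of the genes that remove retinoic acid, Cyp26a1 was above background on 4 arrays. Cyp26b1, the form most prominent in brain, was at -2.24 and -1.32 in Arc, against -3.31, -2.47 and -2.82 in VMH and -3.13, -2.44 and -2.32 in DMH. It differed in Arc by 0.97 ± 0.35 (SE, adjusted p = 0.25). Rarg, the remaining retinoic acid receptor, gave a DMH difference of -0.65 (adjusted p = 0.238). The retinol importer Stra6 gave a VMH difference of -0.32 (adjusted p = 0.779), the plasma carrier Ttr 0.89 (adjusted p = 0.622) and the retinal reductase Dhrs3 -0.63 (adjusted p = 0.689). For each of these genes the nucleus given is the one with its smallest p. Single samples moved several of these values without a call. The Ttr difference was 0.14 without VMH sample 1 and 1.70 without VMH sample 2, and the Cyp26b1 difference was 1.43 without Arc sample 1 and 0.51 without Arc sample 2. The Stra6 difference was -0.66 without Arc sample 1 and 0.023 without Arc sample 2, and that of Dhrs3 ran from -0.997 to -0.28 over the alternatives.

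Thrb, the thyroid hormone receptor beta gene and a partner of retinoid X receptors, is named although it lies outside the rule for named genes and was chosen after its values were seen. It was at -3.07, -2.85 and -3.76 in DMH, against -1.75 and -2.52 in Arc and -1.25, -0.99 and -1.51 in VMH. All DMH samples lay below all other samples. The difference from the mean of the others was -1.53 in DMH (adjusted p = 0.0703) and 1.43 in VMH (adjusted p = 0.0671), and only DMH against VMH passed, at -1.97 (adjusted p = 0.0337, 0.787% of all genes called lower). Over 20 alternatives the adjusted p of that pair ran from 0.00137 to 0.125, and it passed in 11. Leaving out any 1 VMH or DMH sample ended that call, with adjusted p between 0.0684 and 0.125, while the difference stayed between -2.16 and -1.71.

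**Figure D5:**
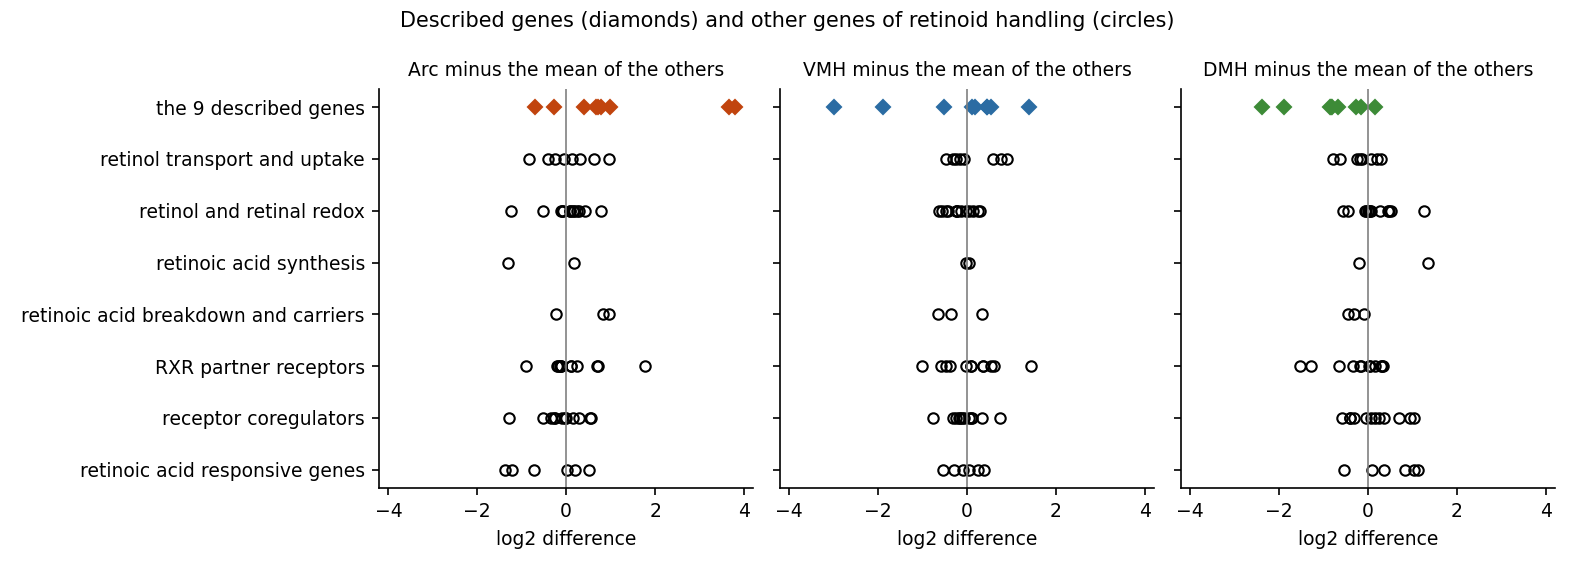
Differences between nuclei (horizontal axis, log2, each nucleus minus the mean of the others) of the 9 described genes (diamonds) and of 56 other measured genes of retinoid handling by role (circles, 1 per gene). The circles lie between -1.53 and 1.77, and Crabp1 reaches 3.79 in Arc. The diamond of Rbp4 includes arrays where its probe was dim.

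Pearson correlations over the 8 arrays describe which genes had patterns most like the 3 members with the widest range of nucleus means. They share arrays and nuclei and carry no test. Among 15345 genes, the pattern of Rbp4 was most like that of Zbtb42 (r = 0.984), Cd24a (0.972) and Mbd6 (0.963). The Rbp4 probe was not well above background on 4 of the 8 arrays, so every correlation of Rbp4 given here includes dim signals. The pattern of Crabp1 was most like that of Gpr158 (0.986), Col2a1 (0.980) and Tbx3 (0.978), and that of Rxrg most like Ggt5 (0.988), Mc3r (0.985) and Spock3 (0.983). Tbx3, an arcuate transcription factor, was at 2.95 and 2.69 in Arc, against -2.01, -1.90 and -1.91 in VMH and -1.86, -2.45 and -1.002 in DMH. Among the 9 genes, Crabp1 and Rbp4 correlated at 0.876, Crabp2 and Rarb at 0.834, and Aldh1a1 and Rara at -0.833.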

How the data were processed

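Pooled, ZsGreen-labelled neurons of Arc, VMH and DMH were measured on 8 Agilent 1-colour arrays, and groups and replicate numbers come from the labels. The values are red-channel spot intensities, which the authors deposited after background subtraction and detrending in Agilent Feature Extraction (version 11.5.1.1 in the submitters' processing notes). They were not normalized between arrays, per the file headers, and come with the flags for spots well above background. All arrays share 1 slide and 1 scan. Because arrays hold no counts, their number limits the precision.

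Here log2 intensity minus each array's 75th percentile of 59305 non-control spots was taken. Outlier spots were left out, repeat spots were averaged, the filter on dim signals asked that all arrays of some nucleus measure a probe well above background (41491 probes), and the brightest probe stood for each gene (27434 genes, including all 9 members; 12 of their 14 probes). The brightest probe of a member was used for its levels. limma 3.58.1 (lmFit, eBayes; R 4.3.3, data.table at version 1.17.8) was fitted over all arrays with a mean per nucleus (residual degrees of freedom 5, prior 2.78), and 1 contrast per nucleus compared it with the mean of the others, with Benjamini-Hochberg adjustment at 0.05. The fit was run on simulated data with independent normal noise, to check that added shifts were estimated. That run does not cover dim probes or variation shared between arrays. Promoter windows and names come from RefSeq, GRCm38.p6; probe positions are in mm9. The authors' table of the series as a whole was not used, because its values run in constant steps.

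All 9 members were named. Of the pathway list, genes past the threshold and Aldh1a2, Aldh1a3, Cyp26a1, Cyp26b1, Stra6, Ttr, Rarg, Rdh10 and Dhrs3 were to be named, with 3 likeness genes for each of 3 members. Some results for genes under this rule are not reported here. The members and lists were chosen with earlier results of these data known. Alternatives were normexp (offset 50), quantile normalization, other filters, a floor, other priors, array weights, blocks, the mean of probes and each array left out.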

Additional observations from a re-analysis of the deposited data

How the results depend on the processing

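Members' differences moved by less than the residual spread in 522 of 537 alternative values, and none of the called ones reversed; the other 15 moved. The Rbp4 Arc difference was 1.73 under normexp background correction and 2.95 with a floor, against 3.67, and the VMH difference was -1.11 and -1.65, against -3.00. With the floor its DMH difference was -1.30, against -0.67. The Rxra DMH difference was -0.41 under normexp, against -0.85. Under the mean of a gene's probes the Rxrg difference was -1.76 in DMH and 0.85 in VMH, against -2.38 and 1.39. Leaving out 1 Arc sample leaves 1, assumed to vary like the other groups, and gave 3.26 to 4.32 for Crabp1 in Arc.

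Crabp1 in Arc and Rxrg in DMH kept their calls in 20 of 20 alternatives. Rbp4 in VMH kept its call in 19 of 19, and in Arc in 18 of 19, losing it with the replicate block. The alternatives reuse these arrays and genes chosen with their values known, so kept calls describe the processing and are no further support. Rbp4 passed the main filter on dim probes only through Arc, and its probe was well above background on none of the VMH arrays. Counts of members: lower in DMH was 1 without a filter on dim probes, with the replicate block and with the slide row block, and 3 with the floor; higher in Arc was 1 with all 8 arrays required and with the replicate block; lower in VMH was 1 with all 8 arrays required, the replicate block and the slide row block; higher in VMH was 0 with the mean of probes and the replicate block. Rbp4 drops out when all 8 arrays are required. The replicate block ended the calls of Rxrg in VMH, of Rbp4 in Arc and of Crabp1 in VMH and DMH. Leaving out 1 array each, the counts ran 0 to 1 for higher in VMH, 1 to 2 for lower in VMH and 1 to 2 for lower in DMH. The cause of these losses was not tested.

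Pathway genes: higher in VMH was 1 with normexp and with the mean of probes (Thrb), lower in DMH was 1 with the mean of probes (Thrb) and with the trended prior (Crebbp), and lower in Arc was 0 to 1 leaving out 1 array (Tbl1xr1). On the replicate block, same-numbered samples correlated at 0.0733 to 0.185 in their deviations from the nucleus means. In these deviations 8 of 8 arrays correlated best with their own number, a hint from the data and not from the design. Deviations cancel within a nucleus, so those of the Arc arrays mirror each other (0.0795 and -0.0795 with VMH sample 1). The 8 matches are therefore not independent. The signals near background limit Rbp4 in VMH and DMH.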
